A study of Drosophila melanogaster with 4 samples.

Results

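Transcripts of 5 serine protease genes, CG8329, CG7829, CG32523, CG3088 and CG9676, were compared between heads of flies that overexpressed lamin B and heads of their control siblings. The 5 genes are of 17753 in the deposited comparison, and of the 11757 that have an adjusted p-value there. They were chosen by membership of the S1 protease family and selected on their strongly negative fold change in this same comparison. Their fold changes are therefore given as a description, with no test.

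At day 30, RNA was taken from pooled heads of Drosophila melanogaster adults and sequenced after poly-A selection. The 2 overexpression samples had the genotype Hsp70-Gal4/+; +/UAS-LamB.GFP, in which a heat shock promoter drives Gal4, and Gal4 a lamin B fused to GFP. For the 2 control sibling samples the genotype was +/+; +/UAS-LamB.GFP, so these carried the transgene without its driver. No sample carried the driver alone, so effects of the driver chromosome and of lamin B cannot be told apart. Whether the samples of a group came from separate cultures is not stated, so the p-values cover just the variation among these samples, and that may be technical.

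S1 proteases share the fold of chymotrypsin and trypsin and cut proteins with a serine that is activated by a histidine and an aspartate. Most are secreted as inactive zymogens and gain activity when another protease clips them. In flies the family serves digestion in the gut, the clotting, melanization and Toll cascades of the hemolymph, and development, and serpins inhibit many of its members. Serine protease homologues (SPH) keep the fold and lack a complete set of catalytic residues. The RefSeq gene table gives CG8329, CG7829, CG32523 and CG9676 the serine protease names SP170, SP136, SP50 and SP99. It gives CG3088 the name SPH188, so CG3088 is named as a homologue and not as an active enzyme. No function of the 5 proteins is given in the files.

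All 5 genes are short. In the annotation of build BDGP6, CG8329 (FBgn0036022) lies on chromosome 3L, 9638112 to 9639021, on the plus strand, and CG3088 (FBgn0036015) on 3L, 9600490 to 9601325, on the minus strand. These genes are 36786 bases apart, and each consists of 1 exon with no intron. CG7829 (FBgn0039703) lies on 3R, 29816738 to 29817764, minus strand. CG9676 (FBgn0030773) lies on X, 16699152 to 16700170, minus strand, and CG32523 (FBgn0052523) on X, 21217878 to 21218835, plus strand. CG9676 and CG32523 are 4517707 bases apart on X. CG7829, CG9676 and CG32523 have 2 exons each, parted by introns of 51, 55 and 67 bases. The coding parts encode between 251 residues (CG9676) and 262 residues (CG32523).

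Of the 5 genes, 4 sit inside a larger gene on the opposite strand. CG8329 lies within fry, CG3088 within Tmc, CG9676 within CG4678 and CG32523 within Mnr, and in each case 0 bases of the annotated exons overlap. The strand setting of the authors' counting is not given in the sources used here, so reads from unspliced RNA of the host gene and from the nested gene cannot be told apart. In the authors' deposited table the host genes stood at a log2 fold change of -0.22 (fry, standard error, SE, 0.0779), 0.02 (Tmc, SE 0.157), -0.24 (CG4678, SE 0.117) and -0.13 (Mnr, SE 0.0472). None of these 4 host genes had an adjusted p-value under 0.05 (a call, here and below), with DESeq2's lowest at 0.0603 for fry.

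The deposited table gives 1 mean per gene over the 4 libraries, as a normalized count (reads divided by a library's size factor), and no value per library. Group means of the 5 genes were worked out from that mean and the fold change after its shrinkage was undone. CG8329 was the most abundant, with a mean normalized count of 39735 over the 4 libraries. Its group mean was 7201 in overexpression heads and 72268 in control heads. CG3088 had a group mean of 6489 in overexpression heads and 41995 in control heads. CG9676 had 3528 in overexpression heads and 21766 in control heads. All 3 genes still had overexpression group means above the median of tested genes, 614.7.

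CG7829 and CG32523 were less abundant, and their overexpression group means lay below that median of 614.7. CG7829 had a group mean of 393 in overexpression heads and 5008 in control heads, and CG32523 had 470 in overexpression heads and 4361 in control heads. As a share of the control level, the overexpression heads held 7.84% of CG7829, 9.96% of CG8329, 10.8% of CG32523, 15.5% of CG3088 and 16.2% of CG9676. Fewer cells of the type that makes these transcripts and less RNA per cell cannot be told apart in whole heads.

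**Figure D1:**
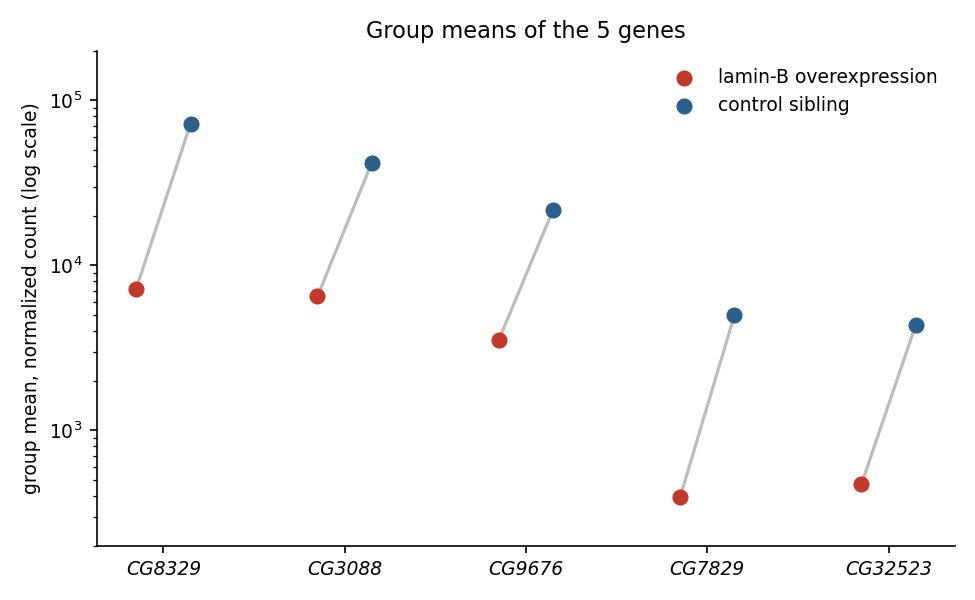
Group means of the 5 genes as normalized counts on a log axis, worked out from the deposited mean and the fold change with shrinkage undone; red points are lamin-B overexpression heads and blue points control sibling heads, 2 libraries per group, with no error drawn. Every red point lies below the blue point of its gene, from 393 against 5008 for CG7829 to 7201 against 72268 for CG8329.

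The fold changes differed in size among the 5 genes. In the authors' deposited table the log2 fold change, overexpression over control and shrunken towards 0, was -3.23 for CG7829 (SE 0.104), -3.16 for CG8329 (SE 0.0696) and -2.93 for CG32523 (SE 0.0903). It was -2.51 for CG3088 (SE 0.0800) and -2.48 for CG9676 (SE 0.0728). With shrinkage undone the log2 fold change was -3.67 for CG7829 (SE 0.118), -3.33 for CG8329 (SE 0.0732) and -3.21 for CG32523 (SE 0.0989). It was -2.69 for CG3088 (SE 0.0857) and -2.62 for CG9676 (SE 0.0770). As folds, CG7829 was 12.8-fold lower, with 11.8 to 13.8 at 1 SE either side, and CG9676 was 6.17-fold lower, with 5.85 to 6.51. CG3088, the homologue, stood beside CG9676, an SP gene, at 6.47-fold lower, with 6.10 to 6.87. With shrinkage undone, the ranges of 1 SE either side overlap for CG3088 and CG9676 and for CG8329 and CG32523, and that of CG7829 lies apart. On the deposited scale CG3088 and CG9676 overlap, and so do CG7829 and CG8329.

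Among the 11757 tested genes, ordered from the most negative deposited fold change, the 5 genes held places 2, 3, 6, 7 and 8. Ahead of them, place 1 was held by CAH5, a carbonic anhydrase gene, and between them CG11211 and CG8343 held places 4 and 5. The next S1 gene beyond the 5 was CG9377 (cSPH166), at -1.41 and place 17. On the deposited, shrunken scale the gap from CG9676 to CG9377 was wider than the whole spread of the 5, which were selected on these values. CG9377 has a larger SE (0.134) and is shrunken more than the 5, so this need not hold with shrinkage undone.

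**Figure D2:**
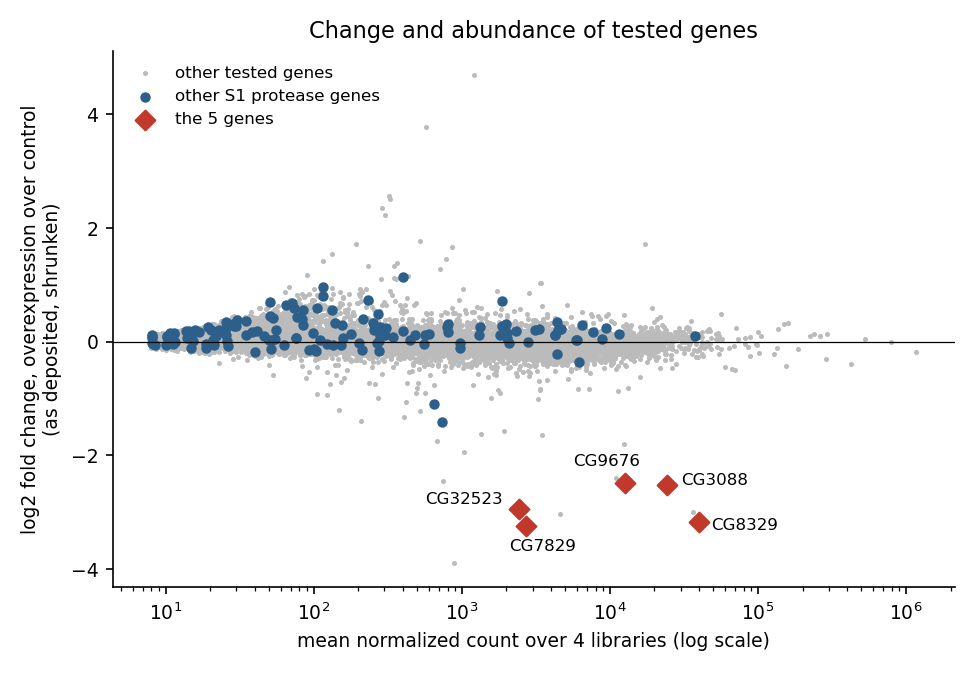
Mean normalized count over the 4 libraries (log axis) against the deposited log2 fold change, overexpression over control, for the 11757 tested genes. The 5 genes (red diamonds) lie between -3.23 and -2.48 at means of 2416 to 39735, below every other S1 protease gene (blue).

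By their mean over the 4 libraries, to which the control heads contribute most, the 5 genes were also among the abundant transcripts of the head. Per kilobase of exon, CG8329 had a mean normalized count of 43664, CG3088 of 28998 and CG9676 of 13119, which put them at percentiles 99.8, 99.4 and 98.4 of tested genes. CG7829 and CG32523 had 2767 and 2711 per kilobase, at percentiles 93.0 and 92.9. Of 150 tested S1 genes, the 5 held places 2, 3, 13, 42 and 36 per kilobase in overexpression heads, in the order CG8329, CG3088, CG9676, CG7829 and CG32523. In control heads they held places 1, 2, 3, 8 and 9 in the same order. For these places shrinkage was undone for the 5 alone, and group means of the other S1 genes rest on the deposited, shrunken fold change.

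The 5 genes together made up a large part of all S1 protease transcripts. Summed over the 5, group means came to 18081 normalized counts in overexpression heads and 145398 in control heads. That was 9.11% of the S1 sum in overexpression heads and 46.6% in control heads. CG8329 alone was 3.63% of the S1 sum in overexpression heads and 23.2% in control heads. The other 145 tested S1 genes summed to 180346 in overexpression heads and 166290 in control heads, so the sum of the remaining family was not lower. For these other genes the deposited, shrunken fold change was used, which understates changes of genes with few reads.

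The S1 genes closest to the 5 in abundance had small fold changes. CG5390 (SPH35) and SPE, the Toll-activating protease that processes Spätzle, had the mean counts per kilobase closest to those of CG8329, CG3088 and CG9676. They stood at 8222 and 6936 per kilobase, below CG8329 at 43664, CG3088 at 28998 and CG9676 at 13119. No other tested S1 gene was as abundant per kilobase as these genes, so the comparison is not at equal abundance. Their deposited log2 fold changes were 0.14 (SE 0.0551, adjusted p = 0.105) and 0.05 (SE 0.0617, adjusted p = 0.773). CG9372 and Ser7, closest to CG7829 and CG32523 at 2637 and 2991 per kilobase, stood at 0.20 (SE 0.0862, adjusted p = 0.131) and 0.11 (SE 0.0671, adjusted p = 0.361). None of the 4 was called by the authors' DESeq2 Wald test.

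The rest of the S1 family had more genes higher than lower. The RefSeq names gave 253 further S1 genes in the table, of which 29 had no reads and 145 had an adjusted p-value. Of those 145, 30 were called higher and 3 lower, against a background of 5.66% called higher and 3.07% called lower over all tested genes. The shares among the 145 were 20.7% higher and 2.07% lower. At least 18 of the 145 had no control read and so could not have been lower, while none of those with recovered reads lacked overexpression reads. Their median deposited log2 fold change was 0.12, against 0.01 over all tested genes. Among the 39 whose mean was 500 normalized counts or more, 5 were higher and 3 lower, or 12.8% and 7.69%, against 3.72% and 5.25% of all genes at that level, where 8.97% were called either way.

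All 3 of the other S1 genes called lower carry SPH names. On the log2 scale of the authors' deposited table, CG9377 fell by 1.41 (SE 0.134, adjusted p = 1.75e-23) and CG17572 (SPH64) fell by 1.09 (SE 0.139, adjusted p = 7.52e-13). The third was scaf, or scarface, which acts in epithelial closure of the embryo and limits JNK signalling. By the authors' deposited table, scaf fell by 0.36 (SE 0.0634, adjusted p = 1.55e-06). Of 96 tested genes with SP names alone, 20 were called higher and 0 lower by that test. These shares were 20.8% and 0%, against 5.66% called higher and 3.07% called lower over all tested genes. At an unadjusted p under 0.05, DESeq2 had 42 of these SP genes higher and 1 lower, against 12.6% higher and 7.48% lower over all tested genes. Of 40 genes with SPH names alone, 10 were called higher and 3 lower, or 25% and 7.5%, against the same 5.66% and 3.07%. At least 12 of the 96 SP genes and 5 of the 40 SPH genes had no control read, so these could not have been lower. The difference between the SP and SPH classes was not tested.

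Of the 30 genes called higher, 25 had a mean normalized count under 500 in heads. Jonah genes, digestive proteases of the gut, had 7 of 12 tested members called higher, and the named trypsins had 3 of 9. These shares were 58.3% and 33.3%, against 5.66% of all tested genes. At an unadjusted p under 0.05, DESeq2 had 8 Jonah genes and 6 trypsins higher, against 12.6% of all tested genes. At least 2 of the tested Jonah genes and 5 of the tested trypsins had no control read, so they were tested through the overexpression libraries alone and could not have been lower. In log2 units of the authors' deposited table, CG9733 (SP10) rose by 1.14 (SE 0.156, adjusted p = 4.54e-11) and CG17242 (SPH187) rose by 0.97 (SE 0.141, adjusted p = 7.37e-10). In the same deposited table Jon65Aiii rose by 0.80, CG10472 (SP78) by 0.74, SPH93 by 0.72, CG7542 (SP71) by 0.70, CG30091 (SP49) by 0.68 and Jon99Ci by 0.64. SPH93, at a mean normalized count of 1881, was the only one of these 8 with a mean of at least 500. All 8 values are shrunken, which understates changes of genes with few reads, so their order is not an order of size.

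Reads in each library could be recovered for genes with a mean of at most 60. The size factors were 1.10 and 1.15 for overexpression and 0.73 and 1.09 for control. Jon25Biii, a Jonah gene, had 110 and 46 recovered reads in overexpression heads, against 0 in both control libraries. CG17571 (SP83) had 179 and 59 reads in the same overexpression libraries and 0 in both controls. CG9997 and aqrs, male seminal proteins that act with sex peptide, had 84 and 52 reads and 67 and 48 reads in the overexpression libraries and 0 in all control libraries. In these genes both overexpression libraries lie above both controls, and the library with size factor 1.10 is the higher of the pair. Of the 10 genes called higher with recovered reads, 7 had no control read and 2 had 1 to 4. After normalization the overexpression library with size factor 1.10 held 1.30 to 3.28 times the other in these 10 genes. All 5 markers of testis and male accessory gland were also called higher, against 5.66% of all tested genes. Among them ProtB and SP had means of just 38.1 and 33.7. Reads per library were not recovered for the markers, and any without a control read could not have been lower. Of 6 midgut markers 3 were called higher and 1 lower, against 5.66% and 3.07% of all tested genes. The lower one was Amy-p, the most abundant of the 6, at -0.19 (SE 0.0550, adjusted p = 0.0117 by DESeq2). The part of these tissues in the S1 counts was not tested.

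The proteases of the Toll and melanization cascades had deposited log2 fold changes between -0.03 and 0.27 in 9 tested genes. DESeq2 called 0 of the 9, which among so few genes is close to the 8.74% of all tested genes. At an unadjusted p under 0.05, 3 of the 9 were higher and 0 lower, against 12.6% higher and 7.48% lower over all tested genes. The 9 genes include grass, psh and modSP, which act upstream of Toll, and Hayan and Sp7, which act in melanization. Of 4 tested membrane and developmental genes, scaf was the 1 called, against 8.74% of all tested genes. The one with the highest mean, teq (Tequila, related to neurotrypsin), had 4152 normalized counts per kilobase, against 43664 for CG8329. The authors' deposited table has it at 0.11 (SE 0.0438, adjusted p = 0.119).

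**Figure D3:**
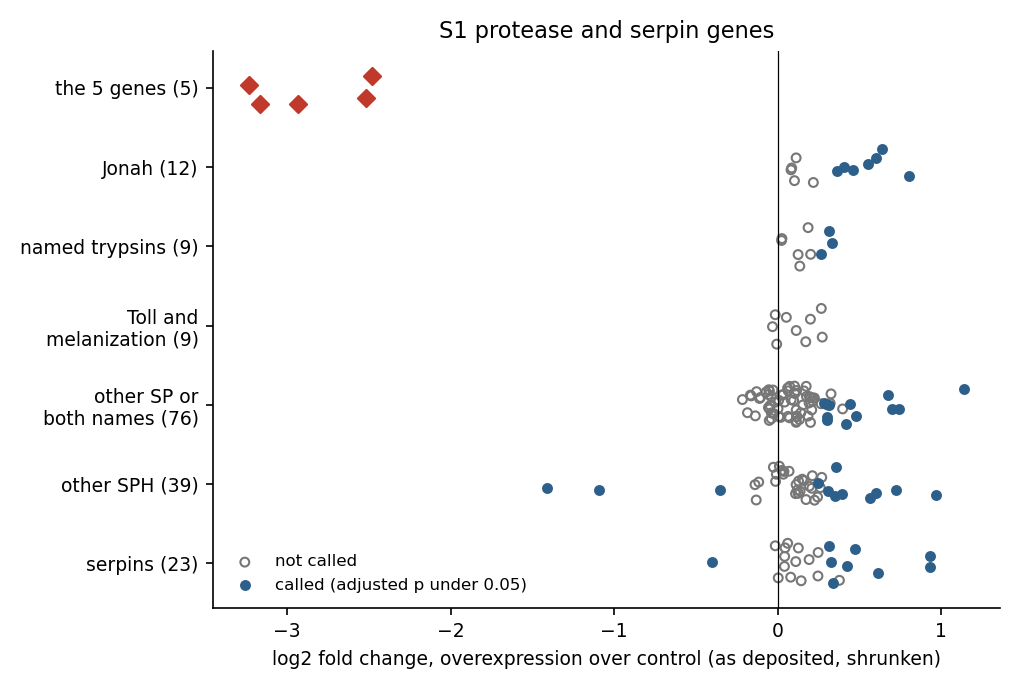
Deposited log2 fold changes, overexpression over control, of the 5 genes (red), the other tested S1 protease genes by class and the serpins; filled blue points passed an adjusted p-value of 0.05, open points did not, and the vertical scatter within a class carries no value. The 5 genes lie at -2.48 or below, and CG9377 at -1.41 is the next.

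Serpins, which trap S1 proteases by a covalent reaction, were higher more often than lower. Of 23 tested serpin genes 8 were called higher and 1 lower, or 34.8% and 4.35%, against 5.66% and 3.07% of all tested genes. The median deposited log2 fold change was 0.19. In the authors' deposited table Spn27A, an inhibitor of melanization, rose by 0.42 (SE 0.0753, adjusted p = 1.55e-06). There nec (necrotic), which restrains Toll signalling through persephone, rose by 0.32 (SE 0.0582, adjusted p = 3.82e-06). The other 6 in the authors' deposited table were Spn77Bc and Spn38F at 0.93 each, Spn77Bb at 0.61, Spn88Eb at 0.47, Spn28Dc at 0.34 and Spn47C at 0.32. Recovered reads of Spn77Bb were 127 and 86 in overexpression heads, against 3 and 2 in control heads, with no overlap. After normalization its group means were 95.0 in overexpression heads and 2.97 in control heads, a difference that the shrunken 0.61 understates. Spn55B was the serpin called lower, and the authors' deposited table gives -0.40 (SE 0.124, adjusted p = 0.0198).

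On the deposited, shrunken scale, genes next to the 5 had smaller fold changes, in both directions. Of the 20 nearest tested genes, 2 on each side of each of the 5, 2 were called higher and 1 lower, against 8.74% of all tested genes called either way. Not all of them are close, since CG1494 and Abca3 lie 66465 and 73472 bases from CG32523. Deposited log2 fold changes of the 20 ran from -0.44 to 0.60, with a median of 0.01, and 9 of the 20 were below 0. The called ones were CG3222 at 0.37 (SE 0.104, adjusted p = 0.0084) and CG3306 at -0.44 (SE 0.154, adjusted p = 0.0473), on either side of CG3088, and CG9673 at 0.60 (SE 0.147, adjusted p = 0.00145), beside CG9676. Cyp40 near CG8329, LanB2 near CG3088 and Septin4 near CG9676 stood at 0.08, 0.22 and -0.17 and were not called. Recovered reads of CG3222 were 178 and 46 in overexpression heads, against 2 and 1 in control heads, with no overlap between the groups. After normalization its group means were 100.7 in overexpression heads and 1.83 in control heads. The shrunken 0.37 understates that difference, so the sizes of change of low-count neighbours cannot be set against those of the 5.

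Neighbouring paralogs are the closest comparison. CG18179 (SP152) begins 249 bases past the end of CG8329 on the same strand, and its recovered reads were 23 and 12 in overexpression libraries and 11 and 16 in controls. Its groups overlap, and its deposited log2 fold change was 0.01 (SE 0.093, adjusted p = 0.988). CG18180 (SP151), next in the row, had a mean normalized count of 139.6 and stood at 0.33 (SE 0.148, adjusted p = 0.173). Within 20000 bases of CG9676 lie 4 further S1 genes, sphe, CG9673, CG4653 and CG9672. The gene sphe (spheroide), a homologue in the Toll cascade, had 116 and 53 recovered reads in overexpression libraries and 26 and 38 in controls, and its groups did not overlap after normalization. The authors' deposited table has sphe at 0.21 (SE 0.128, adjusted p = 0.375). CG4653 and CG9672 stood at 0.19 (SE 0.104) and 0.12 (SE 0.0916) there and were not called. CG8329 and CG9676 were far more abundant than the paralogs beside them, at means of 39735 and 12647 against 15.3 to 139.6.

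CG7829 and CG32523 have no S1 gene among their nearest tested neighbours. Vps16B, 286 bases from CG7829, stood at -0.06 (SE 0.150, adjusted p = 0.923), and neo, on the other side, at -0.08 (SE 0.136, adjusted p = 0.869). Beyond them, ca and Atg16 stood at -0.01 and 0.02 and were not called. Mnr, which spans CG32523, and CG1724 stood at -0.13 and 0.07, and neither was called. CG1724 had 34 and 2 recovered reads in overexpression libraries and 0 in both controls. On the other side of CG32523, CG1494 and Abca3 stood at 0.11 and -0.02 and were not called.

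As checks of the samples, Lam was higher in overexpression heads, at a deposited log2 fold change of 1.04 (SE 0.0801, adjusted p = 6.76e-36). Reads of the transgene and of the native gene are not separated. The head and eye markers ninaE, trp, ninaC, elav, nSyb and repo were all present. Of these 6, 2 were called lower, ninaE at -0.18 and elav at -0.34, against 3.07% of all tested genes. Salivary gland markers were at 0 (Sgs3 and Sgs7) or at a mean of 1.47 (Sgs8). Of the ovary markers, Vm26Aa was at 0 and Cp36 at a mean of 0.67. Yp1 and Yp2 had means of 23.0 and 26.7, and neither was called. Of the 4 fat body markers 2 were called higher, fon at 0.47 and apolpp at 0.14, and 1 lower, Lsp2 at -0.84. Of the 3 hemocyte markers 1 was called lower, PPO1 at -0.53. Over all tested genes 5.66% were called higher and 3.07% lower. The summed midgut markers were 12435 normalized counts in overexpression heads and 13438 in control heads, of which Amy-p made up 10507 in overexpression heads and 11973 in control heads. The summed testis and accessory gland markers were 778 in overexpression heads and 377 in control heads on the shrunken scale, which understates that difference. The part of any of these tissues in the fall of the 5 genes was not tested.

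The second deposited table holds another comparison of 6 libraries, 3 against 3 by the signs of genes with a single read. Which groups it compares, and which is on top of its fold change, is not given in the sources used here, and it was normalized separately. In that deposited table all 5 genes had a negative log2 fold change and all 5 were called by the authors' DESeq2 test. Of all genes tested there, 5.42% were called, 2.34% on the negative side and 3.08% on the positive side. The log2 fold change was -1.51 for CG7829 (SE 0.271, adjusted p = 2.39e-06), -1.34 for CG32523 (SE 0.301, adjusted p = 5.00e-04) and -0.91 for CG9676 (SE 0.250, adjusted p = 0.00911). It was -0.88 for CG8329 (SE 0.282, adjusted p = 0.0374) and -0.86 for CG3088 (SE 0.265, adjusted p = 0.0275). CG8329 and CG3088 were again the most abundant of the 5, at means of 40439 and 25328, and CG32523 the least, at 1841. Of 153 other S1 genes tested there, 3 were called on the negative side and 15 on the positive side, or 1.96% and 9.80%, with a median of 0.12. Lam stood at 0.20 (adjusted p = 0.782 by DESeq2) in that deposited table. Ebp had group means of 2337 in overexpression heads and 90.5 in control heads in the first deposited table, on the shrunken scale, but could be at most 6.16 in any 1 library of the second. For tobi the group means were 8015 in overexpression heads and 14571 in control heads, against at most 110.8 in any 1 library of the second. At these levels neither group of the first table can have both its libraries among the 6.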

How the data were processed

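RNA of 2 lamin-B overexpression and 2 control sibling samples of pooled heads was analysed. The submitters' processing notes name STAR 2.5, HTSeq, DESeq2 1.22.1, DESeq and build BDGP 6, with no role or order. The authors deposited 2 tables of comparisons, with the mean signal (normalized count over all libraries), the log2 fold change with its standard error, the Wald score, and the p-value and adjusted p-value of each gene. The first compares overexpression with control, in the order its title gives the groups, and Lam is positive there. No full count table per library was used here, so the authors' Wald test was taken as deposited. Genes with an adjusted p-value under 0.05 are termed called. The table holds 17753 genes, of which 2471 had no reads and 3525, at means up to 7.96, had no adjusted p-value. The means of all genes sum to 33525755 normalized counts, and size factors of the libraries were 0.73 to 1.15.

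The 5 genes and all gene lists were chosen with earlier results of these data known. The deposited log2 fold changes are shrunken towards 0. Shrinkage was undone for the 5 genes from their standard errors with a prior precision of 9.73, and group means follow from the mean and the fold change. This assumes 1 prior for all genes. Whole reads per library were recovered for S1, serpin and neighbouring genes with a mean of at most 60, where the mean is a sum of whole reads over size factors, and the method was tested on simulated data. Means of the 5 genes are too high for it, so no spread between their libraries can be given. S1 genes were those with a RefSeq synonym of SP, SPH, cSP or cSPH and a number up to 255, in place of the protein motifs planned, since no protein or promoter sequence was used here. For that reason promoter motifs were not searched and no sequence is shown. Coordinates and exon lengths come from Ensembl release 115 for BDGP6.

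Named were the 5 genes, the 2 nearest tested genes on each side, the 8 other S1 genes with the largest change in each direction among those called, the 3 S1 genes next below the 5, called serpins, and the 2 S1 genes closest in abundance. Other named genes, among them teq, the Toll cascade genes, CG4653, CG9672 and those whose recovered reads are given, were chosen after their values were seen. Python 3.11.15, pandas 2.3.3, numpy 2.4.6 and matplotlib 3.10.9 were used.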

Additional observations from a re-analysis of the deposited data

How the results depend on the processing

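No paired analysis was possible because the deposited tables hold no counts per library. For the same reason leaving out each replicate, edgeR and a second DESeq2 fit were not run, and the S1 family by protein motifs and the promoter motifs were not run. At an adjusted p-value under 0.01, 592 genes were called over all tested genes in place of 1027. With genes under a mean of 500 normalized counts left out and p-values adjusted again, 573 were called (237 higher and 336 lower), so the split turned towards lower calls, and 8 of the other S1 genes were called in place of 33. With homologues left out, an alternative chosen after seeing the data, 20 of the other S1 genes were called. The cause was not tested, beyond the smaller number of genes each of these alternatives admits. The median log2 fold change of the 5 genes was -2.93 as deposited and -3.21 with shrinkage undone. Their median abundance percentile was 98.4 per kilobase and 96.2 when not divided by length. Adjusted over every gene with a p-value, CG3306 beside CG3088 was no longer called (adjusted p = 0.0615 by Benjamini-Hochberg over the authors' DESeq2 p-values). Serpin calls stayed between 6 and 9 under the alternatives run. With 2 libraries in a group and no spread per library for the 5 genes, the part of any 1 library in their fold changes was not tested.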
